A study of Mus musculus with 12 samples.

Results

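The libraries described here are those of hematopoietic stem and progenitor cells (HSPCs) from mice kept on a high-salt diet (HSD) or a normal diet (ND) without intracerebral hemorrhage (ICH). They were chosen by their labels alone and make up 6 of the 12 libraries of the study, 3 on HSD and 3 on ND. All mice were wild type (WT) and were kept on their diet for 8 weeks. Per the study's methods, the ND mice ate chow with 0.5% NaCl and drank tap water. The HSD mice ate chow with 8% NaCl and drank water with 1% NaCl. The diets began at 4 to 6 weeks of age, and the cells of 3 animals were pooled for each library, so that the spread between libraries of a diet is the spread between pools. HSPCs were sorted from bone marrow as lineage-negative, CD127-negative, c-kit-positive and Sca-1-positive cells, and total RNA was sequenced. The comparison asks which RNAs differed in the bone marrow progenitors after chronic salt intake alone.

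HSPCs renew themselves and give rise to all blood lineages, and even before commitment they carry low levels of transcripts typical of granulocytes and monocytes, erythroid cells or lymphocytes, which is known as lineage priming. Dividing progenitors need histones for new chromatin, ribosomes and mitochondrial ribosomes for growth, and chaperones of the endoplasmic reticulum for folding. The small nuclear RNAs of the spliceosome and the small nucleolar RNAs that guide modification of ribosomal RNA are transcribed in every cell, lack the usual poly(A) tail, and are read only because total RNA was sequenced.

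The reads recovered in listed genes ranged from 13874826 to 14594254 in the ND libraries and from 8678304 to 15469971 in the HSD libraries. Of 20792 listed genes, 16787 reached 10 reads in 3 or more of the 6 libraries and were tested. Wherever members of a list are counted as higher or lower, these are members with an unadjusted p under 0.05, and only the adjusted p calls a single gene. The markers of the sort were read in all libraries. Kit, which encodes c-kit, was at 437, 448 and 441 CPM (counts scaled to a common library size) on ND and 476, 445 and 487 CPM on HSD. Ly6a, which encodes Sca-1, was read at 5.01 to 6.72 CPM on ND and 3.32 to 5.18 CPM on HSD. Its log2 fold change of CPM + 0.5 was -0.52 (SE 0.202, adjusted p = 0.658). Il7r, which encodes CD127, stayed between 1.97 and 4.13 CPM over the 6 libraries.

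ND replicate 1 and HSD replicate 2 stood apart in macrophage genes. The summed level of the 36 listed macrophage genes was 1710, 845.6 and 784.6 CPM in ND replicates 1 to 3 and 815.3, 2840 and 765.9 CPM in HSD replicates 1 to 3. C1qa, a complement component made by tissue macrophages, was at 17.7, 5.06 and 2.98 CPM on ND and 3.38, 41.2 and 3.8 CPM on HSD. Vcam1, an adhesion molecule of macrophages that support red cell formation, was at 88.7, 25.6 and 20.6 CPM on ND and 18.1, 153 and 15.3 CPM on HSD. The alpha-globin gene Hba-a1 was also highest there, at 85.2 CPM and 85.1 CPM, while the remaining libraries held 11.4 to 32.7 CPM. Since 1 library of each diet was high, the direction of the macrophage list depended on the libraries used. Of 34 tested members, 1 was higher and 0 were lower in the 6 libraries, with a median log2 fold change of 0.15. Without both high libraries 1 was higher and 8 were lower, with a median of -0.23, and without HSD replicate 2 alone 14 were lower. With the macrophage level of each library as a term in the fit (the macrophage covariate), which is made from these same genes, 2 were higher and 12 lower, against 4.72% and 4.46% of all genes tested. In that fit the iron exporter gene Slc40a1, the receptor gene Axl and Vcam1 differed by -0.68, -0.57 and -0.41 (adjusted p = 0.0056, 0.0231 and 0.0354), and in the 6 libraries by -0.33, -0.21 and -0.04 (adjusted p = 0.947, 0.977 and 0.996). Summed markers of other cell types overlapped between the diets, with neutrophil genes at 305.5 to 396.7 CPM on ND and 318.7 to 338.1 CPM on HSD, monocyte genes at 183.8 to 301.3 and 205.7 to 390.5 CPM, and B and plasma cell genes at 112.5 to 145.3 and 110.7 to 131.8 CPM. Of the 22 tested neutrophil genes, 3 were lower and 0 higher, with a median of -0.28, against 3.28% lower of all genes tested. Without both high libraries 9 were lower and 0 higher, with a median of -0.48, against 4.48% lower of all genes. Without ND replicate 3 alone 0 were lower, with a median of -0.08, and without ND replicate 1 alone 9 were lower. Of all 16787 genes 400 and 582 were lower in these 2 fits. The neutrophil gene S100a9, a calcium-binding protein, was at 7.14, 11.1 and 22.1 CPM on ND and 7.48, 6.13 and 5.49 CPM on HSD. Its log2 difference was -0.89 (adjusted p = 0.583) and -1.23 without both libraries (adjusted p = 0.0223). ND replicate 3 was its highest library. ND replicate 1, which overlapped the HSD libraries, is left out of the fit without both, so this small p rests on that choice. Counts that follow are therefore also given without both libraries. That fit compares 2 libraries of each diet, and the libraries left out were picked from these same data. Over all genes tested, 6.47% were higher and 4.48% lower in it. In bulk samples, fewer cells of a type and less RNA per cell cannot be told apart.

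**Figure D1:**
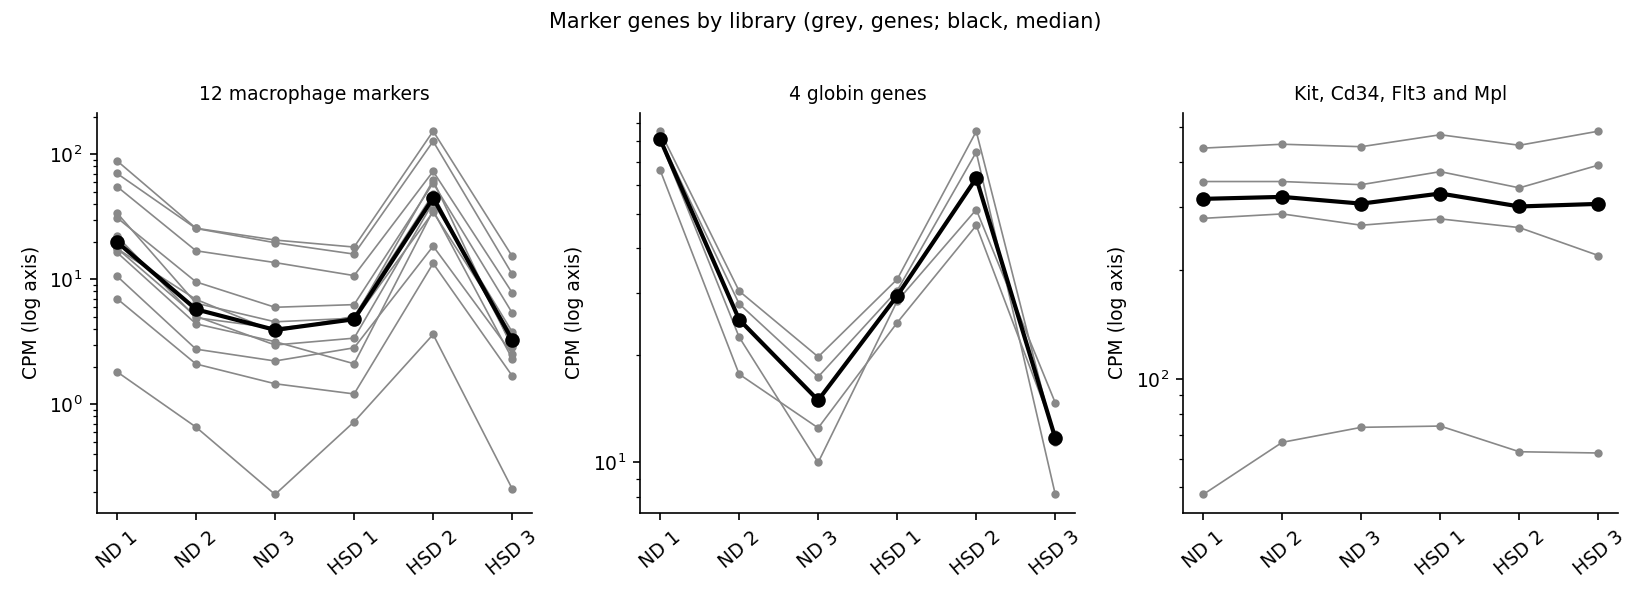
CPM on a log axis of 12 macrophage markers, 4 globin genes and 4 genes of the sorted HSPCs in each library (grey, genes; black, median of the panel; the lines only join the points of a gene). ND replicate 1 and HSD replicate 2 stand above the other libraries in the macrophage and globin panels, while the HSPC genes stay level.

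HSD replicate 2 also stood apart in a group of genes named here after their values were seen. Mid1, a ubiquitin ligase gene at the boundary of the pseudoautosomal region, was at 39.9, 33.2 and 22 CPM on ND and 71.3, 7.34 and 69.5 CPM on HSD. Its log2 fold change was 0.12 (adjusted p = 0.983) with all 6 libraries and 1.37 (adjusted p = 8.77e-05) without ND replicate 1 and HSD replicate 2. The neighboring gene Erdr1 was at 184, 356 and 238 CPM on ND and 436, 113 and 364 CPM on HSD. For these genes the 2 other HSD libraries lay above all ND libraries and HSD replicate 2 lay below them.

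Across all genes the diets differed little. The median log2 fold change was 0.02, and 9168 of the 16787 tested genes (54.6%) had a higher mean on HSD. At an unadjusted p under 0.05, 613 genes (3.65%) were higher on HSD and 550 (3.28%) were lower. At an adjusted p under 0.05, 13 genes (0.0774%) differed. At an unadjusted p under 0.05 with a log2 change of at least 1 in size, the cutoffs of the study, 21 genes (0.125%) differed. The filter here was not that of the study and the test may differ, so this count cannot be set beside the study's own. It was 6 under the filter of the study and 97 by edgeR. Of the 13 genes, 2 are cell division (G2/M) genes and 4 are immediate early genes. The 7 others were all lower on HSD. They are 6 small structured RNAs, namely 4 U1 small nuclear RNAs, Snora73a and Snord15a, and the myosin gene Myh6.

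Without ND replicate 1 and HSD replicate 2, 1086 genes (6.47%) were higher and 752 (4.48%) lower by the unadjusted p, and 98 genes (0.584%) passed the adjusted one. All 13 genes were among these 98. Outside the immediate early and G2/M genes, 27 were higher and 51 lower. The 51 lower genes included 24 small structured RNAs, and the 27 higher genes included 5 genes of granulocyte and monocyte progenitors and 3 histone genes. With all 12 libraries in one fit, which also estimates the spread from the libraries after ICH, 0 genes passed an adjusted p under 0.05 by limma, while by the unadjusted p 398 were higher and 454 lower. By edgeR 10 genes and by DESeq2 66 genes passed an adjusted p in the 6 libraries.

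U1 small nuclear RNA was lower in all 3 HSD libraries than in any ND library. U1 opens splicing by pairing with the 5′ splice site of the intron, and U2 pairs with the branch point. The sequences are shown because the many annotated copies of U1 and of U2 are so alike that reads of one copy can be counted at another. The U1 copy Gm25679 lies at chr12:54719163-54719326 on the minus strand (GRCm38, which is mm10), and 6 other tested loci hold the identical sequence. The capitals mark the bases that pair with the 5′ splice site, which are in all 18 U1 loci tested. The U2 copy Gm24950 lies at chr11:101641748-101641938 on the plus strand, and its capitals mark the bases that pair with the branch point, which are in all 11 U2 loci tested.
Gm25679 (U1): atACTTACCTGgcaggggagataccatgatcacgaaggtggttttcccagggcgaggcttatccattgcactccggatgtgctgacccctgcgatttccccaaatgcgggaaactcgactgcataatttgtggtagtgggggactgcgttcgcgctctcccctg
Gm24950 (U2): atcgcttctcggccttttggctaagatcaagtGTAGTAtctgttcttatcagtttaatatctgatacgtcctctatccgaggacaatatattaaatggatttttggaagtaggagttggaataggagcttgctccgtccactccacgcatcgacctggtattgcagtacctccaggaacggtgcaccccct

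Summed over the 18 U1 loci, the level was 10200, 9520 and 10600 CPM on ND and 7000, 5780 and 6160 CPM on HSD. The mean was 10100 ± 525 CPM on ND and 6310 ± 626 CPM on HSD (SD, n = 3 each), a ratio of 0.625, and the ratio was 0.656 without ND replicate 1 and HSD replicate 2. The groups did not overlap. HSD replicate 1 had the most reads of the 6 libraries and HSD replicate 3 the fewest, and a role of depth was not tested. All 18 loci had a lower mean on HSD, and 14 were lower by the unadjusted p, against 3.28% of all genes tested. Because the loci share reads, these are not 18 separate changes. Without 1 library at a time, 12 to 16 loci were lower at that threshold.

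Among the U1 loci, Gm25679 was at 2030, 1710 and 1960 CPM on ND and 1160, 1050 and 1140 CPM on HSD. It fell by 0.76 on the log2 scale (SE 0.0981, adjusted p = 0.0121). Its neighbors on chromosome 12, Gm24305, Gm22513 and Gm23804, fell by 0.80, 0.98 and 0.91 (adjusted p = 0.018, 0.018 and 0.0462). No HSD library overlapped an ND library at any of these loci. Leaving out 1 library moved these calls across the threshold. Without ND replicate 3 the adjusted p of Gm25679 was 0.0918, that of Gm22513 0.101 and that of Gm23804 0.193, and without HSD replicate 1 it was 0.0604 for Gm25679, 0.0737 for Gm24305 and 0.0604 for Gm22513. Without ND replicate 1 it was 0.0641 for Gm22513 and 0.108 for Gm23804, without HSD replicate 3 it was 0.0624, 0.0552 and 0.0856 for Gm24305, Gm22513 and Gm23804, and without ND replicate 2 it was 0.0951 for Gm23804. Without ND replicate 1 and HSD replicate 2 together it was 0.000687 for Gm25679. In the libraries after ICH, Gm25679 ranged from 339 to 867 CPM on ND and from 156 to 437 CPM on HSD, below every library without ICH, and with all 12 libraries in one fit the adjusted p of the diet difference without ICH was 0.957.

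**Figure D2:**
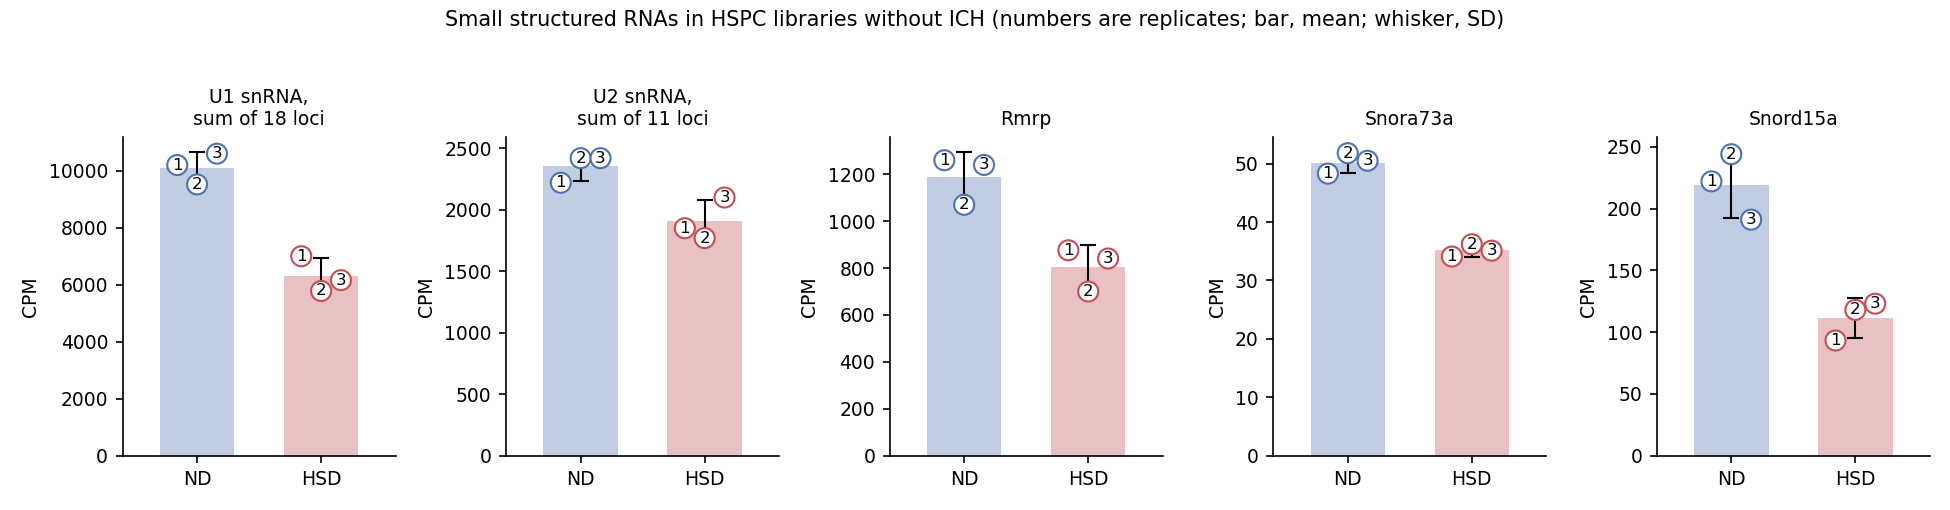
CPM of small structured RNAs in each library without ICH (numbers are replicates; bars, mean; whiskers, SD), each panel on its own linear axis from 0. The HSD libraries lie below all ND libraries in U1, whose sum was 5780 to 7000 CPM on HSD and 9520 to 10600 CPM on ND.

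U2 differed less than U1. Its 11 loci summed to 2220, 2420 and 2420 CPM on ND and 1850, 1770 and 2100 CPM on HSD, a ratio of 0.811 (0.816 without ND replicate 1 and HSD replicate 2). Of the 11 loci, 7 were lower, against 3.28% of all genes tested. Gm24950, shown above, was at 857 to 978 CPM on ND and 712 to 835 CPM on HSD, a log2 difference of -0.28 (SE 0.091, adjusted p = 0.539). The 41 other tested small nuclear RNA loci, which hold none of the U1, U2 or U5 starts and not that of Gm24265, had 0 higher and 0 lower members and a median of -0.10. The 3 loci that start like Gm24265 summed to 31.9, 26.8 and 34 CPM on ND and 21.1, 16.5 and 18.9 CPM on HSD. Their ratio was 0.61, with 2 loci lower and Gm22249 at 0.43. The 5 tested U5 loci summed to 9.45, 9.47 and 10.5 CPM on ND and 8.98, 2.91 and 8.66 CPM on HSD. Of these 1 was lower, and the ratio was 0.698, or 0.882 without ND replicate 1 and HSD replicate 2. Of the 24 small nuclear RNA loci lower at an unadjusted p under 0.05, 14 were U1 and 7 were U2 loci.

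Small nucleolar RNAs were lower too. Of 253 tested, 58 were lower and 2 were higher, against 3.28% and 3.65% of all genes tested, with a median of -0.18. Their sum was 3630 to 3875 CPM on ND and 2438 to 3054 CPM on HSD. The counts were 52 lower and 8 higher without ND replicate 1 and HSD replicate 2, against 4.48% and 6.47% of all genes. Of the 15 tested small Cajal body RNAs, which guide modification of the spliceosomal RNAs themselves, 6 were lower, against 3.28% of all genes tested, and 0 higher. Their sums were 420.6 to 431.9 CPM on ND and 332.0 to 374.8 CPM on HSD, and 5 were lower without ND replicate 1 and HSD replicate 2. The microRNA genes, which were also read as small transcripts, had 4 higher (1.72%) and 9 lower (3.88%) of 232, with a median of 0.02. The 383 tested long intergenic RNAs had 5 higher (1.31%) and 13 lower (3.39%), with a median of 0.01.

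Snora73a, a small nucleolar RNA of ribosomal RNA processing, was at 48.3, 51.8 and 50.5 CPM on ND and 34.1, 36.2 and 35.1 CPM on HSD. It fell by 0.51 on the log2 scale (SE 0.0797, adjusted p = 0.047). It lies inside Snhg3 on the same strand, so that reads of the host transcript could be counted with it. Its adjusted p was between 0.0702 and 0.333 without ND replicate 1, 2 or 3 and HSD replicate 1 or 3 and 0.0964 with the replicate block. Snord15a, which guides modification of ribosomal RNA and lies inside the ribosomal protein gene Rps3, fell by 0.98 (SE 0.113, adjusted p = 0.00572), and its adjusted p was at most 0.0412 without any 1 library. The adjusted p was 0.00584 for Snora73a and 0.000298 for Snord15a without ND replicate 1 and HSD replicate 2. Rmrp, the RNA of the RNase MRP enzyme that processes ribosomal RNA, was at 1260, 1070 and 1240 CPM on ND and 876, 700 and 841 CPM on HSD. Its log2 difference was -0.57 (SE 0.105, adjusted p = 0.0934), and Ccdc107 overlaps 159 bases of it on the other strand and exceeded it by only 9.4 to 14 CPM in every library, so that reads of the pair cannot be told apart. The scaRNA Gm26083 inside Snhg20 was at 57.0, 55.5 and 63.8 CPM on ND and 37.5, 33.5 and 43.2 CPM on HSD (log2 difference -0.63, adjusted p = 0.059).

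Transcripts of the cardiac myosin locus were low in all libraries and lower on HSD. Myh6, the alpha heavy chain of cardiac myosin (chr14:54941921-54966927, minus strand), was at 1.89, 2.10 and 3.36 CPM on ND and 0.0603, 0.1 and 0.211 CPM on HSD, and it fell by 2.22 on the log2 scale of CPM + 0.5 (SE 0.284, adjusted p = 0.0121). Its adjusted p was 0.0538 without ND replicate 2, 0.104 without ND replicate 3, 0.0602 without HSD replicate 1, 0.00209 without ND replicate 1 and HSD replicate 2, and 0.0568 with all 12 libraries in one fit. Its neighbor Myh7, the beta heavy chain, was at 0.98, 1.71 and 1.02 CPM on ND and was not read in any HSD library. With 56 reads on ND against none, it was at least 14.8-fold lower on HSD, counting 3 reads over the HSD group as the floor, which covers counting error only (log2 difference -1.77, adjusted p = 0.0658). Among other genes of contractile proteins, Mybpc3, a myosin-binding protein of heart muscle, was at 3.88 to 4.95 CPM on ND and 2.53 to 3.01 CPM on HSD (log2 difference -0.54, adjusted p = 0.594), while others overlapped. Tnni3, a subunit of cardiac troponin, was at 1.91 to 3.62 CPM on ND and 2.71 to 3.82 CPM on HSD, and Ttn, which encodes titin, was at 4.83 to 7.43 CPM on ND and 6.23 to 9.04 CPM on HSD. Of the 19 tested sarcomere genes, 1 was higher (5.26%) and 3 lower (15.8%), against 3.65% and 3.28% of all genes tested. In the libraries after ICH, Myh6 was between 0.887 and 5.79 CPM.

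Some immunoglobulin variable segments were lower on HSD, at low levels. Igkv12-89, a kappa light chain V segment, was at 1.75, 9.27 and 1.84 CPM on ND and was not read on HSD, which makes it at least 51.7-fold lower (195 reads on ND, 0 on HSD; log2 difference -2.89, adjusted p = 0.059). The bound was 21.6-fold without ND replicate 2, which held most of the reads. Of the 20 V segments tested, 4 were lower, against 3.28% of all genes tested, and 0 were higher, with a median of -0.31. Their sums overlapped, at 22.95 to 49.44 CPM on ND and 16.27 to 33.46 CPM on HSD. The count was 5 without ND replicate 1 and HSD replicate 2. The median ranged from -0.49 without ND replicate 1 to -0.08 without HSD replicate 3. The heavy chain segments Ighv1-42 and Ighv1-81 differed by -0.96 and -0.95 (adjusted p = 0.517 and 0.524). V segments are near-identical copies of one another, and their values are uncertain.

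**Figure D3:**
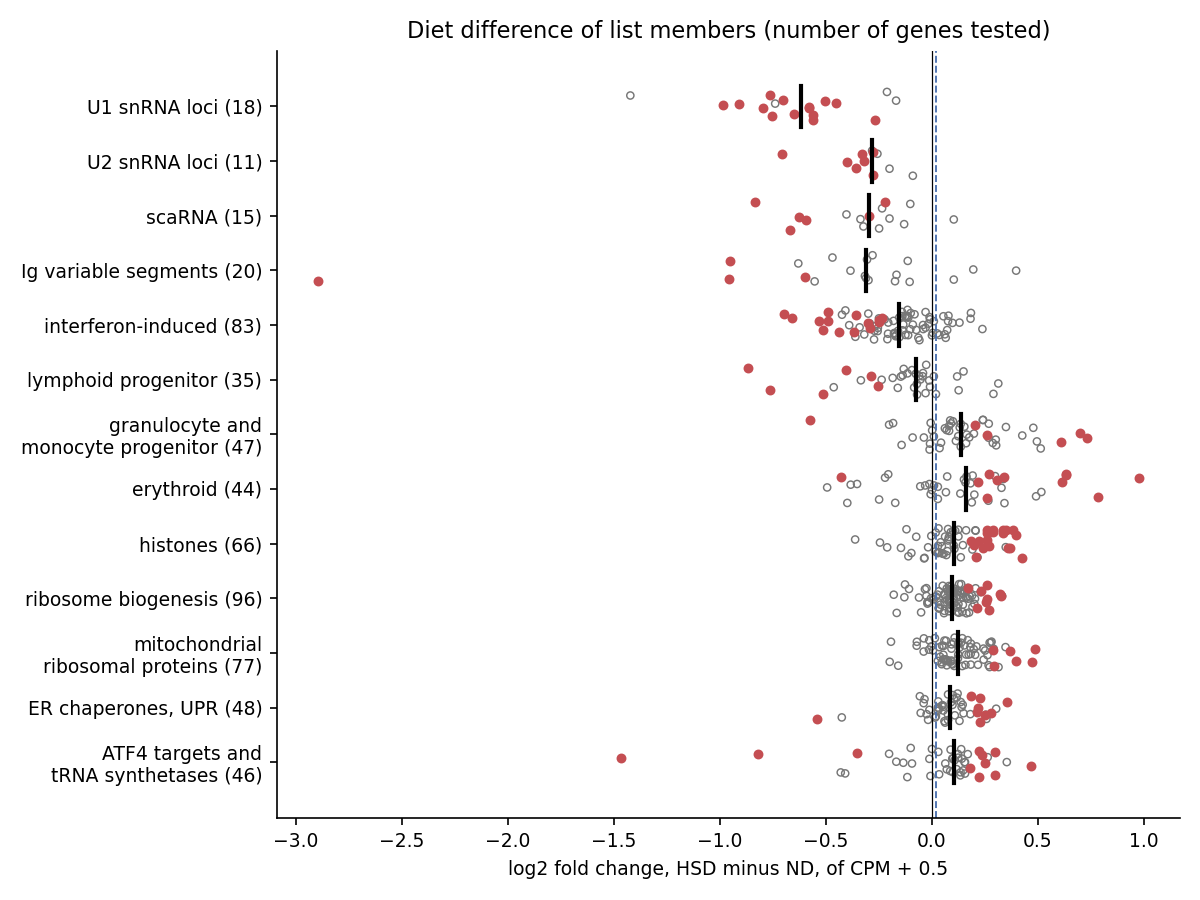
Log2 fold change of CPM + 0.5, HSD minus ND, for each tested member of the gene lists (points, genes, filled red where the unadjusted p is under 0.05; black bars, list medians; dashed blue line, the median of 0.02 over all genes tested). Histone, erythroid and growth lists lie mostly to the right of the line, and the interferon list mostly to the left.

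Histone genes were higher on HSD as a group. Of 66 tested, 20 were higher, against 3.65% of all genes tested, 0 were lower, and 54 had a higher mean. The linker histones (H1), which bind between nucleosomes, were grouped after the data were seen. Of 7 tested, 6 were higher, and 3 were when ND replicate 2, ND replicate 3 or HSD replicate 2 was left out. Their sum was 2738, 2546 and 2466 CPM on ND and 3004, 3354 and 2940 CPM on HSD, with no overlap. For all histones the sums overlapped, at 22770, 20330 and 20010 CPM on ND and 22280, 26620 and 23090 CPM on HSD. H1f5 was at 294, 257 and 241 CPM on ND and 309, 357 and 348 CPM on HSD, a log2 difference of 0.36 (SE 0.0894, adjusted p = 0.325). H2ax, the histone variant marked at DNA breaks, was at 141, 126 and 120 CPM on ND and 155, 189 and 164 CPM on HSD (0.39, SE 0.0897, adjusted p = 0.264), and H3c14 differed by 0.38 (adjusted p = 0.352). Without ND replicate 3, 12 of the 66 were higher, and without ND replicate 1 and HSD replicate 2, 24 were.

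Genes of growth and protein synthesis leaned toward HSD by small steps. Of 96 ribosome biogenesis genes, which make ribosomal RNA and assemble the subunits, 9 were higher, against 3.65% of all genes tested, 0 were lower, and 82 had a higher mean, against 54.6% of all genes, with a median of 0.09. Heatr1, which supports RNA polymerase I, was at 118, 103 and 97.4 CPM on ND and 134, 115 and 134 CPM on HSD (0.27, SE 0.0899, adjusted p = 0.582). Bop1 and Tbl3, which process ribosomal RNA, differed by 0.26 and 0.32. The count was 1 without ND replicate 3 and 22 without ND replicate 1, and 28 without ND replicate 1 and HSD replicate 2. In that last fit 6.47% of all genes tested were higher. The sums of this list overlapped, at 6500 to 7713 CPM on ND and 7241 to 7443 CPM on HSD, and ND replicate 1 was the highest library. Of the 77 mitochondrial ribosomal protein genes, 6 were higher and 0 lower and 67 had a higher mean, against 3.65% higher and 54.6% with a higher mean over all genes tested, with a median of 0.12. The count was 3 without ND replicate 3, 16 without ND replicate 1 and 19 without ND replicate 1 and HSD replicate 2. Their sums overlapped too, at 1420 to 1671 CPM on ND and 1596 to 1683 CPM on HSD. Mrpl40, of the large mitochondrial subunit, was at 14.1, 11.2 and 12.4 CPM on ND and 16.5, 16.3 and 17.2 CPM on HSD (0.40, adjusted p = 0.507), and Mrps36 and Mrps24 differed by 0.49 and 0.37. The cytosolic ribosomal proteins did not lean this way: 1 of 88 was higher and 3 were lower, with a median of 0.00.

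Genes of protein folding in the endoplasmic reticulum differed by similar steps. Of 48 tested, 8 were higher, against 3.65% of all genes tested, and 1 lower, against 3.28%, with a median of 0.08. Their sums overlapped, at 4335 to 4927 CPM on ND and 4763 to 5002 CPM on HSD. Sdf2l1, a chaperone cofactor, was at 16.4, 13.3 and 14.8 CPM on ND and 20, 18.7 and 18.5 CPM on HSD (0.35, SE 0.115, adjusted p = 0.536), and the chaperones Hyou1 and Pdia4 differed by 0.22 and 0.23. Dnajb9, a cochaperone induced by unfolded proteins, went the other way at -0.54 (adjusted p = 0.348). The number of higher genes was 2 without ND replicate 2, 14 without ND replicate 1 and 14 without ND replicate 1 and HSD replicate 2. In that last fit 6.47% of all genes tested were higher. Among the 46 genes of the ATF4 program, which responds to a shortage of amino acids, 8 were higher and 3 lower. Over all genes tested 3.65% were higher and 3.28% lower. The sums of this list overlapped, at 1845 to 2058 CPM on ND and 2050 to 2111 CPM on HSD. The tRNA synthetases Iars and Tars were at 86.8, 86.3 and 79.6 CPM and 54.5, 52.7 and 49.4 CPM on ND and at 100, 99.0 and 112 CPM and 61.3, 62.7 and 62.4 CPM on HSD. Their log2 differences were 0.30 (adjusted p = 0.352) and 0.25 (adjusted p = 0.487). The lower members included Ppp1r15a, a phosphatase subunit that is also induced as an immediate early gene, at -0.82. The number of higher genes was 4 without ND replicate 3 or HSD replicate 3, 13 without ND replicate 1 and 13 without ND replicate 1 and HSD replicate 2.

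The erythroid list, which holds globins, membrane proteins, heme enzymes and transcription factors, leaned toward HSD, with some members lower. Of its 44 tested genes, 10 were higher (22.7%) and 1 was lower (2.27%), against 3.65% and 3.28% of all genes tested. A higher mean was seen in 31, against 54.6% of all genes, and the median was 0.16. Their sums overlapped, at 1017 to 1262 CPM on ND and 1084 to 1265 CPM on HSD. Ank1, which anchors the red cell membrane to its skeleton, was at 5.46, 4.93 and 4.38 CPM on ND and 8.86, 6.93 and 7.92 CPM on HSD (0.63, SE 0.167, adjusted p = 0.366). Add2, which binds the spectrin network, differed by 0.97 (adjusted p = 0.486), and the heme synthesis gene Alad differed by 0.34. Alas2, the erythroid enzyme that begins heme synthesis, differed in the other direction, at 13.6, 9.93 and 8.50 CPM on ND and 7.30, 9.65 and 6.34 CPM on HSD (-0.43, adjusted p = 0.717). The number of higher genes was 6 without ND replicate 2 or HSD replicate 1 and 13 without ND replicate 1 and HSD replicate 2, with 2 lower and a median of 0.21. With the macrophage covariate 11 were higher and 3 lower. The membrane genes Slc4a1, Epb42 and Sptb, named after their values were seen, differed by -0.49, -0.25 and -0.17. They did not reach the unadjusted threshold.

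Granulocyte and monocyte progenitor genes leaned toward HSD, but ND replicate 1 moved the count. Of 47 tested, 5 were higher, against 3.65% of all genes tested, and 1 lower, against 3.28%. A higher mean was seen in 38, against 54.6% of all genes, and the median was 0.14. Their sums overlapped, at 3336 to 4980 CPM on ND and 4284 to 5085 CPM on HSD. Elane, which encodes neutrophil elastase, was at 95, 47.5 and 38.8 CPM on ND and 78.4, 117 and 88.6 CPM on HSD (0.73, SE 0.254, adjusted p = 0.583). Only ND replicate 1 reached the HSD libraries. Leaving out ND replicate 1 and HSD replicate 2 takes out this overlapping library and leaves 2 libraries per diet. In that fit Elane differed by 0.95 (adjusted p = 0.000127). Mpo, Prtn3 and Ctsg, further granule enzymes, differed by 0.51, 0.48 and 0.52 (adjusted p = 0.00853, 0.0223 and 0.0106). These small p-values rest on that choice of libraries. Ms4a3, which marks these progenitors, was at 9.52, 5.92 and 5.08 CPM on ND and 10, 13.4 and 10 CPM on HSD (0.70, adjusted p = 0.494), and Cd33, an inhibitory receptor of myeloid cells, differed by -0.58 (adjusted p = 0.444). The count of higher genes was 1 without ND replicate 3, where 363 of all 16787 genes were higher. It was 16 without ND replicate 1, where 888 of all genes were. Without both ND replicate 1 and HSD replicate 2, 17 were higher and 3 lower, against 6.47% and 4.48% of all genes tested. The median was 0.00 without HSD replicate 2. Among 22 basophil and mast cell genes, the proteases Prss34 and Mcpt8 were among the higher ones (1.00 and 0.76, adjusted p = 0.646 and 0.67) and the interleukin-33 receptor gene Il1rl1 was lower (-0.56, adjusted p = 0.52). Of the 22, 5 were higher and 1 was lower without ND replicate 1 and HSD replicate 2, against 6.47% and 4.48% of all genes tested.

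**Figure D4:**
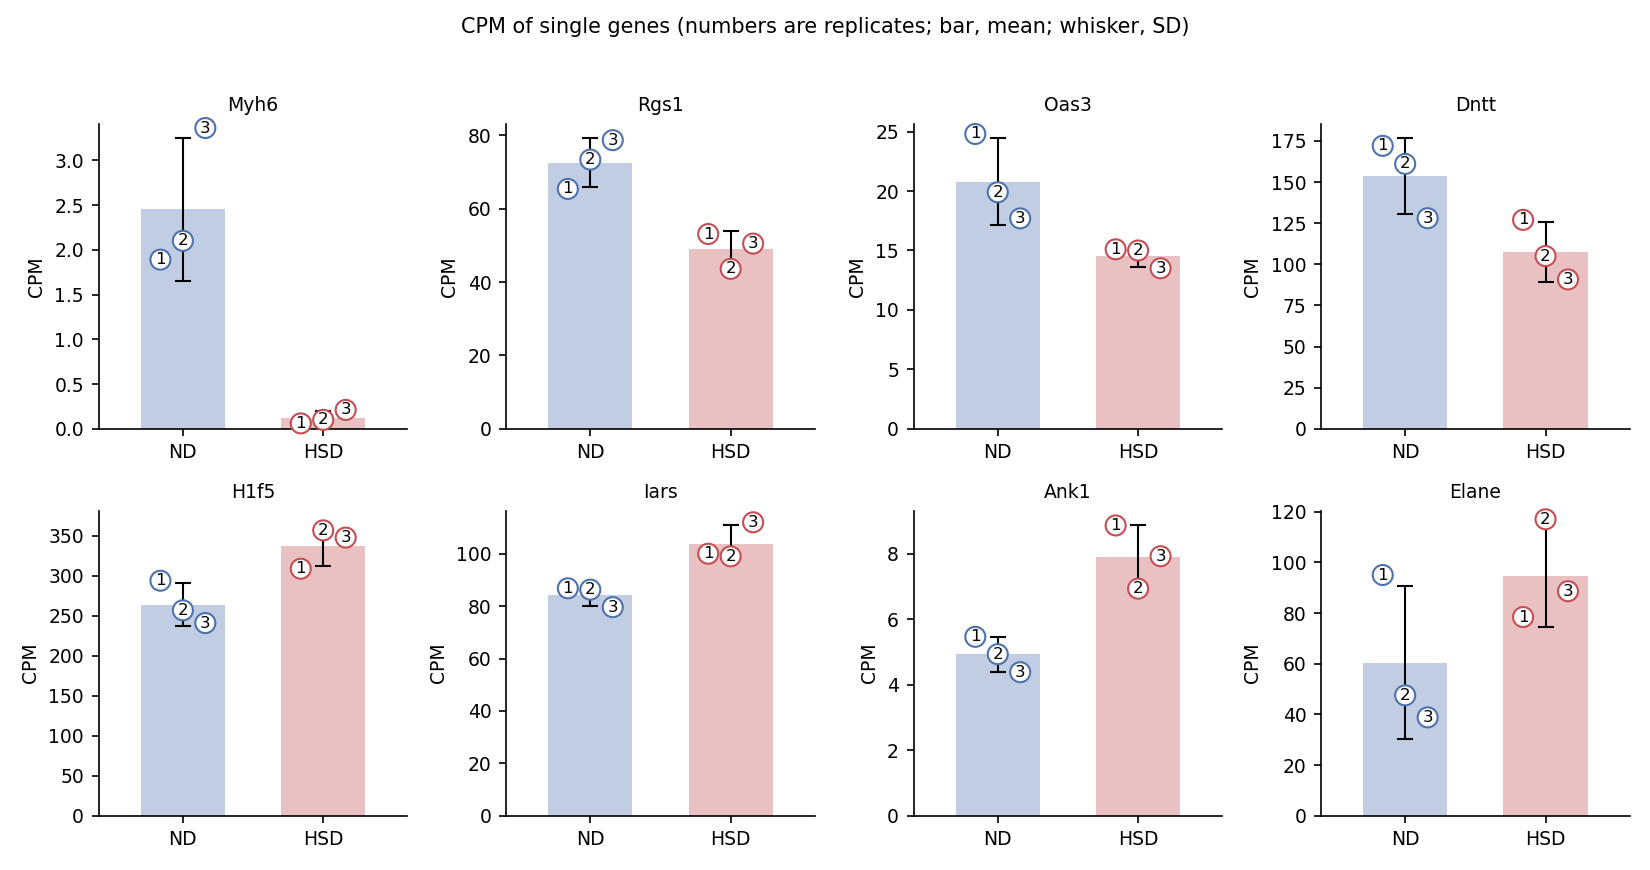
CPM of single genes in each library without ICH (numbers are replicates; bars, mean; whiskers, SD), each panel on its own linear axis from 0. Myh6 and Rgs1 show no overlap between the diets, while ND replicate 1 overlaps the HSD libraries in Elane.

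Interferon-stimulated genes leaned lower on HSD, but ND replicate 1 moved the count. Of 83 tested, 14 were lower, against 3.28% of all genes tested, and 0 were higher. A lower mean was seen in 68, against 45.4% of all genes, and the median was -0.15. Their sums overlapped, at 3055 to 3611 CPM on ND and 3060 to 3172 CPM on HSD. Oas3, which senses double-stranded RNA, was at 24.8, 19.9 and 17.7 CPM on ND and 15.1, 15 and 13.5 CPM on HSD (-0.49, SE 0.133, adjusted p = 0.369). Rtp4, a chaperone of receptors, was at 18.1, 13.4 and 12.8 CPM on ND and 10.1, 11.8 and 8.56 CPM on HSD (-0.51, adjusted p = 0.524). Slfn5 differed by -0.53 and Oasl2 by -0.36 (adjusted p = 0.534 and 0.569). The diets did not overlap in Oas3, Rtp4 or Slfn5, and none passed an adjusted p. ND replicate 1 was the highest library in each: without it 4 members were lower and 5 higher, without ND replicate 3 21 were lower, and without ND replicate 1 and HSD replicate 2 7 were lower and 2 higher. With the macrophage covariate 25 were lower and 0 higher.

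Promoters of the lower interferon genes are shown because most hold letters that interferon regulatory factors are known to bind. TTTCNNTTTC was searched on both strands in RefSeq promoters of GRCm38.p6, which reach from 250 bases before to 50 bases after the start. It was found in 6 of the 9 lower interferon genes with an entry (66.7%), in 33 of 63 interferon genes tested with an entry (52.4%) and in 404 of 10652 genes tested (3.79%). These shares are a description, and no test compared them. The capitals mark the match in the promoter of Oas3 (chr5:120777610-120777909, minus strand) and of Slfn5 (chr11:82951852-82952151, plus strand).
Oas3: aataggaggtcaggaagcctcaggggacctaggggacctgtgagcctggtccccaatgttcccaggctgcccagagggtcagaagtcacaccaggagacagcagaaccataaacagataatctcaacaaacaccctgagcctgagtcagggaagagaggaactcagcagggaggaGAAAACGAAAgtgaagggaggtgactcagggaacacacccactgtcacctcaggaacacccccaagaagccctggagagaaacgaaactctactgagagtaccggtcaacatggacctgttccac
Slfn5: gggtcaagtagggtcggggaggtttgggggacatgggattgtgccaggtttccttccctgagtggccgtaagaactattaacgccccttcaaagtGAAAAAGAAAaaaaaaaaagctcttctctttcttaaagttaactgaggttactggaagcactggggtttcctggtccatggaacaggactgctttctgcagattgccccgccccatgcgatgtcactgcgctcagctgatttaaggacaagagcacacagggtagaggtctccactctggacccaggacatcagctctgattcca

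Lymphoid priming genes were lower in small numbers. Of 35 tested, 6 were lower and 0 higher, and 28 had a lower mean, against 3.28% lower and 45.4% with a lower mean over all genes tested, with a median of -0.08. Their sums overlapped, at 2510 to 2774 CPM on ND and 2351 to 2609 CPM on HSD. Dntt, the terminal transferase of early lymphoid progenitors, was at 172, 161 and 128 CPM on ND and 127, 105 and 90.8 CPM on HSD (-0.52, SE 0.128, adjusted p = 0.318). Every HSD library was below every ND library, with 127 and 128 CPM as the closest. Notch1, the receptor that directs T cell fate, and Ctla2a differed by -0.25 and -0.29 (adjusted p = 0.67 and 0.366). The number of lower genes was 3 without ND replicate 2 or HSD replicate 3, and 6 with 1 higher without ND replicate 1 and HSD replicate 2.

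Further protein-coding genes are given for their small p and not as a group. Rgs1, which dampens chemokine receptor signals, was at 65.4, 73.4 and 78.7 CPM on ND and 53.1, 43.6 and 50.5 CPM on HSD (-0.56, SE 0.0971, adjusted p = 0.0769), and its adjusted p was 0.00342 without ND replicate 1 and HSD replicate 2. Rgs2, of the same family, was at 40.6, 40 and 38.7 CPM on ND and 31.7, 28.7 and 31.4 CPM on HSD (-0.37, adjusted p = 0.245). Cish, which inhibits cytokine receptor signaling, was at 10.3, 11.8 and 9.90 CPM on ND and 7.72, 6.23 and 5.18 CPM on HSD (-0.71, adjusted p = 0.268). The kinase gene Plk2 differed by -1.14 and the transcription factor genes Klf11 and Hivep2 by -0.70 and -0.50 (adjusted p = 0.232, 0.245 and 0.281). None of these overlapped between the diets. In the higher direction, Arhgap19 was at 27.4, 21.4 and 21.6 CPM on ND and 32.7, 38.9 and 30.6 CPM on HSD (0.53, SE 0.122, adjusted p = 0.264), Aars2, a mitochondrial tRNA synthetase, differed by 0.48 (adjusted p = 0.268), Phb by 0.40 and Uchl3 by 0.50 (adjusted p = 0.307 and 0.294).

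Genes of the osmotic response and of ion transport differed in small numbers. Over all genes tested 3.65% were higher and 3.28% lower in the 6 libraries. Without ND replicate 1 and HSD replicate 2 these shares were 6.47% and 4.48%. Of 33 genes of the osmotic response, 0 were higher and 2 lower (6.06%), with a median of -0.06. Without ND replicate 1 and HSD replicate 2, 6 were lower, a larger share than over all genes. The 2 lower in the 6 libraries were Ptgs2, an inducible prostaglandin synthase that is also an immediate early gene (-1.21, adjusted p = 0.341), and Tsc22d2 (-0.26, adjusted p = 0.67). Of 39 sodium and ion transport genes, 3 were higher (7.69%) and 0 lower, with a median of 0.10. The higher ones were Slc1a5, a neutral amino acid transporter that carries sodium, at 0.22, Atp1b3, a subunit of the sodium pump, at 0.19, and Slc12a4, a potassium chloride cotransporter, at 0.46 (adjusted p = 0.585, 0.701 and 0.701). The count was 0 without ND replicate 3, 5 without ND replicate 1 and 4 without ND replicate 1 and HSD replicate 2. Stem cell identity genes had 1 higher (Ndn, 0.66) and 1 lower (Ly6a) of 46 (2.17% each), with a median of -0.01. The MHC class I genes had 0 of 27 in either direction, and 4 higher without ND replicate 1 and HSD replicate 2. Of 32 genes that answer glucocorticoid or adrenergic signals, 1 was higher (3.12%) and 5 were lower (15.6%), a larger lower share than over all genes. Without both libraries 9 of them were lower. Among the 5 was the phosphodiesterase gene Pde4b at -0.32 (adjusted p = 0.335).

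**Figure D5:**
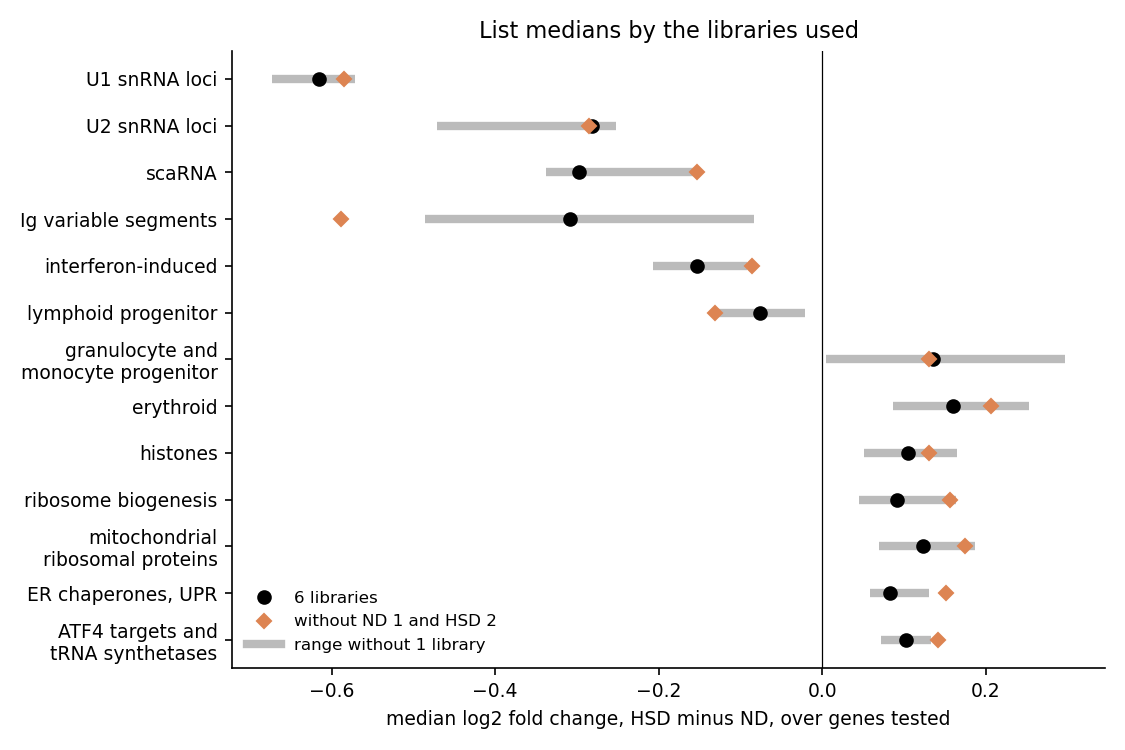
Median log2 fold change, HSD minus ND, of each list with all 6 libraries (black), without ND replicate 1 and HSD replicate 2 (orange) and as the range without 1 library at a time (grey). U1 stays between -0.67 and -0.57, while the granulocyte and monocyte progenitor list spans 0.00 to 0.30.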

How the data were processed

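HSPC libraries of 3 ND and 3 HSD samples without ICH were compared. Per the labels and methods, the authors used Rsubread to align to mm10, featureCounts to count and edgeR 3.24.3 for TMM scaling. The deposited values are CPM relative to this adjusted library size. All values (100%) were whole multiples of the CPM of 1 read (tolerance 0.01 read), which gave the reads used for depth and count tests; with a step of 0.10048 CPM, near a round number, the recovery is less certain in HSD replicate 2. Strand use in counting is not given in the sources used here. Of 20792 listed genes, 20550 matched GENCODE M21. No per-sample column was left unused (0).

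Genes that reached 10 reads in 3 or more of the 6 libraries were tested with limma 3.58.1 (R 4.3.3, variance trend) on log2(CPM + 0.5), with p-values adjusted over all 16787 genes by the Benjamini-Hochberg method; fold changes on this scale understate the change of low genes. In the 6 libraries edgeR 4.0.16 (quasi-likelihood) and DESeq2 1.42.0 were run on the recovered reads. Other alternatives were offsets of 0.1 and 1, no filter, the filter of the study (CPM above 10), RLE scaling, all 12 libraries, a macrophage covariate, a replicate block, and each library left out. On simulated data for this comparison (16787 genes), limma recovered 78% of 2-fold and 92% of 4-fold changes, and 10.1% of calls were false.

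The members and all 52 gene lists were chosen with earlier results of these data known. The snRNA families, the biotypes and the linker histone group were added after seeing the data. Named were genes past an adjusted p outside the immediate early and G2/M lists, the 12 protein-coding genes of smallest p per direction with and without both libraries high in macrophage genes, up to 4 members of smallest p per list, macrophage genes and sort markers; Mid1, Erdr1, Tnni3, Ttn, Slc4a1, Epb42, Sptb, S100a9, Gm26083 and Ccdc107 were chosen after their values were seen. Small nuclear RNAs were grouped by their first 15 bases. Replicate numbers are shared by the diets, and whether they mark pairs is not given. The correlations of the deviations of same-numbered libraries were -0.23, -0.16 and 0.09, and with so few pools they cannot decide it. Whether the pools came from separate cohorts is not given, so p-values measure only the spread between these pools.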

Additional observations from a re-analysis of the deposited data

How the results depend on the processing

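The number of genes past an adjusted p under 0.05 was 13 with the settings reported and 8 to 22 without 1 library at a time, 8 with no filter, 66 by DESeq2, 99 with the macrophage covariate, 98 without ND replicate 1 and HSD replicate 2, and 0 with all 12 libraries. With the replicate block it was 16, and among the named genes Snora73a missed the threshold with the block while Igkv12-89 and Gm26083 passed it (adjusted p = 0.0131 and 0.0299). No other named gene changed sides with the block. Genes higher at an unadjusted p under 0.05 numbered 613, and 346 by DESeq2, 398 with all 12 libraries, 315 to 888 without 1 library, and 1086 without both libraries. Genes lower numbered 550, and 287 under the filter of the study and 333 to 637 without 1 library. Genes at the threshold of the study numbered 21, and 90 with an offset of 0.1, 11 with an offset of 1, 6 under its filter, 97 by edgeR, 77 by DESeq2, 63 without both libraries and 25 to 64 without 1 library. The log2 difference of Mid1 was 0.12, and between -0.42 and 1.18 without 1 library, with -0.12 when ND replicate 3, -0.42 when HSD replicate 1 and -0.40 when HSD replicate 3 was left out. The macrophage genes Slc40a1, Axl and Vcam1, at -0.33, -0.21 and -0.04, turned to 0.07, 0.40 and 0.46 by edgeR and to 0.09, 0.41 and 0.46 by DESeq2. Without 1 library at a time they ranged from -1.31 to 0.27, -1.28 to 0.46 and -1.10 to 0.60, and turned positive when ND replicate 1, then HSD replicate 1, then HSD replicate 3 was left out (Slc40a1 0.27, 0.05 and 0.26; Axl 0.34, 0.20 and 0.46; Vcam1 0.60, 0.43 and 0.55). The share of calls that were higher was 52.7%, and 44.5% with RLE scaling. For the settings that changed these counts the cause was not tested. With 3 pools per diet, small shifts of single genes could not be resolved.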
